A study of Mus musculus with 4 samples.

Results

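The classical sinusoidal endothelium of the femur marrow is described here in 4 single-cell libraries. Cells belonged to it when they carried at least 1 UMI (unique molecular identifier, a counted RNA molecule) of the endothelial genes Cdh5 or Pecam1, at least 1 of Stab2 and at least 1 of Ackr1, Sele or Selp. They also had at most 1 UMI of Ramp3, Piezo2, Pcdh17 and Ednrb together, 0 of the arterial genes Gja5 and Sema3g, and fewer than 20 UMIs of the stromal genes Col1a2 and Cxcl12 per 10000. Of 18543 cells that passed the quality filters, 2035 met the rule. They were 150 of 4920 cells in Graft_D40 and 511 of 4902 in Graft_D19, against 555 of 4570 in Sham_D40 and 819 of 4151 in Ctrl. The cells were chosen by the measured UMI counts of these 14 genes, so the levels of those genes are given as a description.

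All animals were Rag2-/-gammac-/- mice on C57BL/6, a strain without mature B, T and NK cells. Graft_D40 and Graft_D19 are femurs injected with DOHH2, a B-cell line grown from a human follicular lymphoma, and taken at day 40 and day 19. Sham_D40 is a femur preparation from PBS-injected mice at day 40, and Ctrl is from ungrafted mice. Ages, and the number of mice behind a library, are not given in the sources used here. Each group is 1 library with no replicate, so nothing between libraries was tested, and an animal, a day and a library cannot be told apart from the treatment. Every interval below covers counting error at 95% and not the spread between animals.

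Sinusoids are the wide, thin-walled venous vessels of the marrow, through which blood cells leave the tissue and to which circulating stem cells return. Their endothelium is a scavenger: receptors such as stabilin-2, encoded by Stab2, and the mannose receptor take up waste macromolecules from the blood. It also displays selectins and VCAM-1, which catch passing leukocytes, and secretes factors that help to keep blood stem cells in place.

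The label was checked against its 6 markers, of which Cxadr and Gpm6a had no part in the rule. Summed over the 6 markers, the classical cells held 2891 CPM (UMIs of a gene per 1000000 UMIs of the same cells) in Graft_D40 and 3945 in Graft_D19, against 4781 in Sham_D40 and 4141 in Ctrl. The arterial gate (2 or more UMIs of Gja5 and Sema3g) held 37.9 CPM in Graft_D40 and 29.3 in Graft_D19, against 28.5 in Sham_D40 and 84.5 in Ctrl, and the cells outside the endothelial gate held 16.9 CPM in Graft_D40 and 79.3 in Graft_D19, against 73.9 in Sham_D40 and 174 in Ctrl. Stab2, Ackr1, Sele and Selp were required by the rule, so this sum is a description, and Cxadr and Gpm6a bear on the label. A second sinusoidal population is used as the nearest comparison. Its cells pass the Stab2 step and lack the arterial genes, but carry 2 or more UMIs of Ramp3, Piezo2, Pcdh17 and Ednrb. They were not required to hold Ackr1, Sele or Selp, which bears on their marker sum. This population is called the Ramp3 group below. Its marker sum was 1018 CPM in Graft_D40 and 1876 in Graft_D19, against 3629 in Sham_D40 and 3330 in Ctrl.

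Cxadr encodes the coxsackie and adenovirus receptor, a cell junction protein, and lies on chromosome 16, 78301489 to 78359774 (mm10). It stood at 152 CPM in Graft_D40 and 357 in Graft_D19, against 467 in Sham_D40 and 399 in Ctrl. Gpm6a, a membrane glycoprotein first known from neurons (chromosome 8, 54954843 to 55060871), stood at 711 CPM in Graft_D40 and 867 in Graft_D19, against 1027 in Sham_D40 and 832 in Ctrl. In the arterial gate Cxadr was at 0.862 CPM in Graft_D40 and 0 in Graft_D19, against 2.37 in Sham_D40 and 0 in Ctrl, and Gpm6a at 19.8 CPM in Graft_D40 and 29.3 in Graft_D19, against 9.49 in Sham_D40 and 21.1 in Ctrl. Outside the endothelial gate Cxadr was at 2.48 CPM in Graft_D40 and 7.82 in Graft_D19, against 7.33 in Sham_D40 and 16.3 in Ctrl, and Gpm6a at 4.14 CPM in Graft_D40 and 17.8 in Graft_D19, against 15.7 in Sham_D40 and 37.0 in Ctrl. Both markers were thus higher in the classical cells than in either population in each library, and both were lowest in Graft_D40. Lyve1, a hyaluronan receptor of liver sinusoids and lymphatics, was at 0 counts in all 4 libraries. With 3 counts equal to 2.06, 0.659, 0.608 and 0.720 CPM in Graft_D40, Graft_D19, Sham_D40 and Ctrl, levels up to those values are not excluded by counting.

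**Figure D1:**
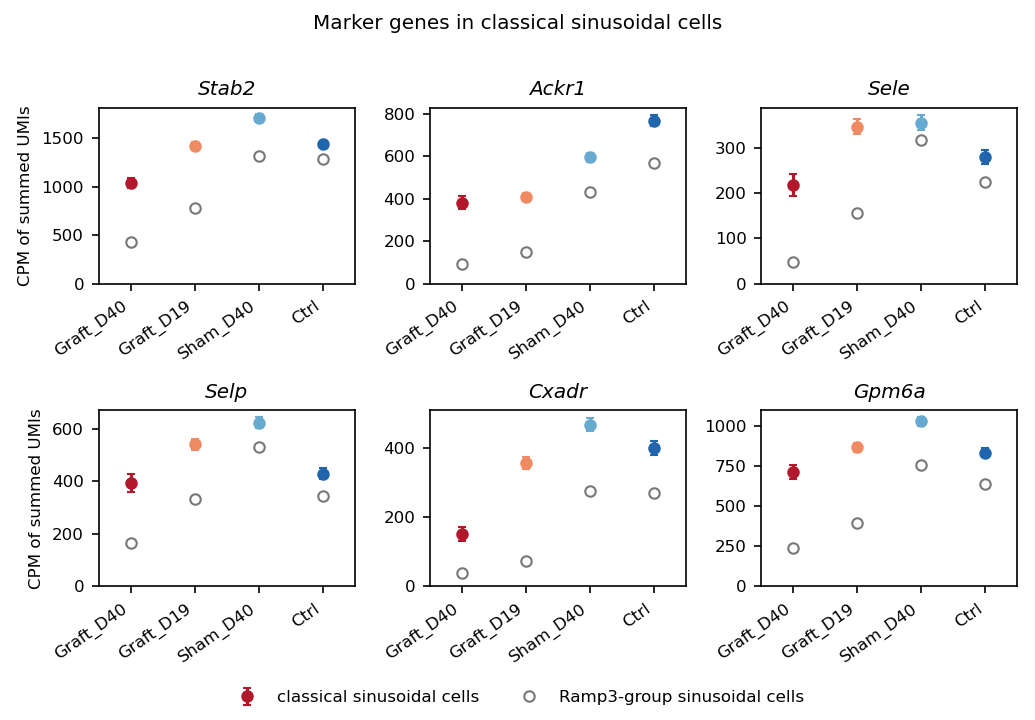
Levels of the 6 markers in CPM, on a linear axis, in the 4 libraries from Graft_D40 to Ctrl. Filled points are the classical cells with exact Poisson intervals and open points are the Ramp3 group. Cxadr stands at 152 CPM in the classical cells of Graft_D40 and at 467 CPM in those of Sham_D40.

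The classical cells were not equally numerous or equally deep in the libraries. They made up 11.7% of the endothelial gate in Graft_D40 and 39.3% in Graft_D19, against 50.8% in Sham_D40 and 65.6% in Ctrl. When every cell was first thinned to 1500 UMIs and the rule applied again, the shares were 9.41% in Graft_D40 and 36.3% in Graft_D19, against 50.1% in Sham_D40 and 54.4% in Ctrl. These shares depend on genes that themselves differ between the libraries and on the sort, and are no measure of vessel abundance. The median UMIs per classical cell were 8084.5 in Graft_D40 and 8555 in Graft_D19, against 8649 in Sham_D40 and 4951 in Ctrl, so Ctrl is the shallowest. Summed, the 4 sets held 1458664 UMIs in Graft_D40 and 4553829 in Graft_D19, against 4937082 in Sham_D40 and 4169199 in Ctrl. Between 11 and 15 cell barcodes were shared by any 2 libraries, and 1 of them was a classical cell in both.

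The steps of the rule removed different shares of cells. In Graft_D40, 505 of 1283 gated cells had a Stab2 UMI, 345 of these also had Ackr1, Sele or Selp, 157 of these had at most 1 UMI of the Ramp3 genes, and 150 lacked the arterial genes. In Sham_D40 the same steps left 783 of 1093, then 741, 581 and 555. The step on the Ramp3 genes thus took more of the Graft_D40 cells than of the Sham_D40 cells. At the edges, the 10 classical cells of Graft_D40 with exactly 1 Stab2 UMI had 133 CPM of Gpm6a and 0 of Cxadr. The 83 cells just outside, which met every other step with 0 Stab2 UMIs, had 71.5 and 4.27 CPM. In Sham_D40 the 11 cells inside had 426 CPM of Gpm6a and 187 of Cxadr, and the 49 outside had 116 and 21.0 CPM. At the adhesion step, the 33 Graft_D40 cells with 1 UMI had 279 CPM of Gpm6a and 22.9 of Cxadr, and the 32 cells with 0 had 115 and 13.1 CPM. Cells at the edge of the rule in Graft_D40 therefore carried less of the independent markers than those of Sham_D40. For this reason the main values are also given for the cells well inside it, with 3 or more UMIs of Stab2 and 2 or more of the adhesion genes. These numbered 108 in Graft_D40 and 443 in Graft_D19, against 508 in Sham_D40 and 631 in Ctrl, a choice made after the data were seen.

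Genes listed as markers of other cells were present in the classical cells. A list of chondrocyte markers summed to 4953 CPM in Graft_D40 and 897 in Graft_D19, against 434 in Sham_D40 and 332 in Ctrl. Most of the Graft_D40 sum came from 3 mixed cells, defined as cells with 50 or more UMIs per 10000 of 1 marker list of another lineage, 1 of which held 94134 UMIs. There were 11 such cells in Graft_D19, 3 in Sham_D40 and 4 in Ctrl, and without them the sums were 334 CPM in Graft_D40 and 212 in Graft_D19, against 193 in Sham_D40 and 37.9 in Ctrl. LepR stroma markers summed to 470 CPM in Graft_D40 and 618 in Graft_D19, against 724 in Sham_D40 and 677 in Ctrl. That list includes the rule gene Cxcl12, at 189 CPM in Graft_D40 and 286 in Sham_D40, and the lipid gene Lpl. How much of the LepR sum came from stroma was not tested. Pericyte markers summed to 647 CPM in Graft_D40 and 679 in Graft_D19, against 605 in Sham_D40 and 691 in Ctrl, and myeloid markers to 14.4 CPM in Graft_D40 and 66.3 in Graft_D19, against 39.1 in Sham_D40 and 42.0 in Ctrl. Only 1 of the 7 pericyte markers reached a mean of 20 CPM over Graft_D40 and Sham_D40. Outside the endothelial gate the pericyte sums were 996 CPM in Graft_D40 and 363 in Graft_D19, against 354 in Sham_D40 and 654 in Ctrl. Fibroblast markers summed to 440 CPM in Graft_D40 and 322 in Graft_D19, against 229 in Sham_D40 and 87.1 in Ctrl, and osteoblast markers to 747 CPM in Graft_D40 and 130 in Graft_D19, against 104 in Sham_D40 and 304 in Ctrl. The mixed cells held 8.78% of the classical cells' UMIs in Graft_D40 and 0.986% in Sham_D40. The main counts for Graft_D40 are therefore given with and without them.

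Graft_D40 was set against Sham_D40, the library of the same day, to ask how these cells differ late after grafting. Cxadr, Fcgr2b, Vcam1, Cfd and the genes Id1, Id2 and Id3 were lower than in Sham_D40. Rsad2, Col4a2, Igfbp5 and the sort antigen Ly6a were higher. Of the lists, the immediate early genes held the most members past 1.5-fold on the lower side (12 of 28). With all cells the basement membrane genes held the most on the higher side (15 of 34). Without the mixed cells the interferon genes did (16 of 36, against 10 of 33 basement membrane genes). Well inside the rule it was again the interferon genes (15 of 36, against 10 of 33). Differences were counted at 1.5-fold or more on CPM + 1, among genes with a mean of 20 CPM or more in the pair. Of 6703 such genes, 272 were higher (4.06%) and 252 lower (3.76%) in Graft_D40. Without the mixed cells 220 were higher (3.29%) and 213 lower (3.19%) of 6677, and well inside the rule 219 were higher (3.28%) and 229 lower (3.43%) of 6682. For scale, the ungrafted libraries Sham_D40 and Ctrl differed from each other by more: 1310 genes were higher (20.1%) and 680 lower (10.4%) of 6526. Over Ctrl, Graft_D40 had 1394 genes higher (21.4%) and 736 lower (11.3%) of 6523. Counted against both ungrafted libraries at once, 181 genes were higher (2.85%) and 91 lower (1.43%) of 6355 in Graft_D40.

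Sinusoidal identity and scavenging genes were on the lower side. Of 25 measured members of that list, 7 were lower and 0 higher, with a median log2 ratio of -0.38 against -0.005 for all genes. Of the 23 that are not in the rule, 5 were lower and 0 higher. Lrp1, at 28.1 CPM in Graft_D40 and 6.48 in Sham_D40, missed the minimum on the pair mean. So did Oit3, which went the other way at 5.48 CPM in Graft_D40 and 24.1 in Sham_D40. Without the mixed cells the count was 3 lower of 25 and the median -0.27, and well inside the rule 2 lower and -0.20. Cxadr was 3.08 times lower in Graft_D40 than in Sham_D40 (interval 2.68 to 3.56). Well inside the rule it stood at 192 CPM in Graft_D40 and 379 in Graft_D19, against 479 in Sham_D40 and 420 in Ctrl, a log2 ratio of -1.32 over Sham_D40. The Cxadr difference was therefore present without the edge cells.

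Fcgr2b encodes the inhibitory IgG receptor with which sinusoids clear immune complexes. It was at 487 CPM in Graft_D40 and 670.4 in Graft_D19, against 868 in Sham_D40 and 1047 in Ctrl, 1.78 times lower than in Sham_D40 (1.64 to 1.93). Maf, a transcription factor needed for liver sinusoidal identity in mice, was at 555 CPM in Graft_D40 and 662 in Graft_D19, against 869 in Sham_D40 and 686 in Ctrl. Both were lowest in Graft_D40. Tspan7 was at 363 CPM in Graft_D40 and 511 in Graft_D19, against 563 in Sham_D40 and 534 in Ctrl, and the scavenger receptor gene Msr1 at 37.0 CPM in Graft_D40 and 39.3 in Graft_D19, against 56.3 in Sham_D40 and 54.4 in Ctrl. Gpm6a, with a log2 ratio of -0.53, and the mannose receptor gene Mrc1, at 1045 CPM in Graft_D40 and 1339.8 in Graft_D19, against 1490.0 in Sham_D40 and 1135 in Ctrl, did not reach 1.5-fold. The rule genes Stab2 and Ackr1 were among the 7. Stab2 was at 1039 CPM in Graft_D40 and 1425 in Graft_D19, against 1713 in Sham_D40 and 1436 in Ctrl, and Ackr1 at 380.5 CPM in Graft_D40 and 409.5 in Graft_D19, against 594 in Sham_D40 and 766 in Ctrl.

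Other scavenging genes did not differ by this measure. Dnase1l3, a secreted nuclease that degrades DNA in circulating particles, was at 826 CPM in Graft_D40 and 698 in Graft_D19, against 821 in Sham_D40 and 851 in Ctrl. Stab1, the paralog of Stab2, was at 698 CPM in Graft_D40 and 734 in Graft_D19, against 838 in Sham_D40 and 622 in Ctrl. Plvap, which builds the diaphragms of fenestrae, was at 1358 CPM in Graft_D40 and 1673 in Graft_D19, against 1597 in Sham_D40 and 1651 in Ctrl. Of the 25 measured endocytosis and lysosome genes 1 was higher and 0 lower, with a median log2 ratio of 0.05. Among the cells well inside the rule 0 of the 25 were higher or lower.

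The adhesion genes split. Vcam1 encodes the integrin ligand on which haematopoietic cells anchor, and lies on chromosome 3, 116109949 to 116129688. It was at 258 CPM in Graft_D40 and 589 in Graft_D19, against 881 in Sham_D40 and 527 in Ctrl. That is 3.42 times lower in Graft_D40 than in Sham_D40 (3.07 to 3.81), and the log2 ratio was -1.77 for all cells, -1.65 without mixed cells and -1.45 well inside the rule. After thinning to 1500 UMIs, a Vcam1 UMI was found in 26.8% of the classical cells of Graft_D40 (19.9 to 34.7, Clopper-Pearson), against 64.1% in Sham_D40. The cells outside the endothelial gate, which include Vcam1-expressing stroma, had 37.1% in Graft_D40 and 65.9% in Sham_D40. Both populations thus had lower shares in Graft_D40, and whether free stromal RNA has a part in the endothelial value was not tested.

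Icam1, a ligand of leukocyte integrins, was at 102 CPM in Graft_D40 and 132 in Graft_D19, against 171 in Sham_D40 and 154 in Ctrl. The selectin genes were used by the rule: Sele was at 217 CPM in Graft_D40 and 347 in Graft_D19, against 355 in Sham_D40 and 279 in Ctrl, and Selp at 393 CPM in Graft_D40 and 541 in Graft_D19, against 624 in Sham_D40 and 429 in Ctrl. These genes were all lowest in Graft_D40. In contrast, Icam2, a constitutive endothelial integrin ligand, was at 230.3 CPM in Graft_D40 and 206 in Graft_D19, against 152 in Sham_D40 and 206 in Ctrl. Podxl, a sialomucin of the luminal surface, was at 104 CPM in Graft_D40 and 52.0 in Graft_D19, against 42.3 in Sham_D40 and 31.9 in Ctrl, and Cd34, a related sialomucin, at 45.9 CPM in Graft_D40 and 21.3 in Graft_D19, against 8.30 in Sham_D40 and 6.00 in Ctrl. Of the 14 adhesion genes measured, 3 were higher and 4 lower, and well inside the rule 3 were higher and 1 lower.

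The thinned classical cells were also counted by which adhesion gene they held. In Graft_D40, 28.9% held Ackr1, 24.2% Sele and 40.3% Selp, against 48.0%, 33.9% and 56.9% in Sham_D40. All 3 were held by 6.04% in Graft_D40 and 8.46% in Graft_D19, against 11.96% in Sham_D40 and 7.17% in Ctrl. Since the rule asked for any 1 of the 3, these shares describe the cells chosen.

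Genes downstream of NF-kB, the factor that drives inflammatory adhesion, followed the lower group. Of 19 measured, 5 were lower and 0 higher, with a median log2 ratio of -0.30, and without mixed cells 4 were lower. Nfkbiz, an inducible NF-kB cofactor, was at 34.3 CPM in Graft_D40 and 49.0 in Graft_D19, against 62.4 in Sham_D40 and 52.3 in Ctrl. Socs3, which restrains cytokine signalling, was at 50.7 CPM in Graft_D40 and 76.2 in Graft_D19, against 83.2 in Sham_D40 and 126 in Ctrl. Well inside the rule 2 of the 19 were lower.

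The Id genes, inhibitors of basic helix-loop-helix factors and direct targets of BMP signalling, were lower as a group. Id1 (chromosome 2, 152736251 to 152737410) was at 155 CPM in Graft_D40 and 333 in Graft_D19, against 301 in Sham_D40 and 260.0 in Ctrl. It was 1.94 times lower in Graft_D40 than in Sham_D40 (1.69 to 2.24), and the log2 ratio well inside the rule was -1.05. Id2 was at 108 CPM in Graft_D40 and 167 in Graft_D19, against 259 in Sham_D40 and 161 in Ctrl, and Id3 at 636 CPM in Graft_D40 and 984 in Graft_D19, against 1153 in Sham_D40 and 1403 in Ctrl. All 3 were lower in Graft_D40 than in each of the other libraries. The inhibitory SMAD gene Smad6 was at 17.1 CPM in Graft_D40 and 20.6 in Graft_D19, against 27.3 in Sham_D40 and 20.1 in Ctrl. These were the 4 lower genes among 16 measured of the BMP, SMAD and iron list, of which 0 were higher and whose median was -0.06. Of the 4, Smad6 was below 20 CPM in Graft_D40 and was measured only through its level in Sham_D40. Its log2 ratio well inside the rule was -0.45, within 1.5-fold. Without mixed cells 3 of the 16 were lower, and well inside the rule also 3. Bmp6, the sinusoidal iron sensor ligand known from mouse liver, was near the floor at 6.17 CPM in Graft_D40 and 3.29 in Graft_D19, against 4.05 in Sham_D40 and 3.36 in Ctrl.

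Of 14 measured niche factors 4 were lower and 1 higher, and without mixed cells 2 were lower and 1 higher. Pdgfb, the ligand that holds mural cells on vessels, was at 69.2 CPM in Graft_D40 and 111 in Graft_D19, against 143 in Sham_D40 and 169.6 in Ctrl, 2.07 times lower than in Sham_D40 (1.68 to 2.57). Igfbp2, an IGF-binding protein that supports stem cells in culture, was at 18.5 CPM in Graft_D40 and 64.3 in Graft_D19, against 61.4 in Sham_D40 and 93.3 in Ctrl. The hepatocyte growth factor gene Hgf was at 21.3 CPM in Graft_D40 and 23.3 in Graft_D19, against 33.8 in Sham_D40 and 42.5 in Ctrl. All 3 were lowest in Graft_D40 and highest in Ctrl. The Notch ligand gene Jag1 was at 46.6 CPM in Graft_D40 and 69.0 in Graft_D19, against 72.5 in Sham_D40 and 76.3 in Ctrl, but its log2 ratio of -0.63 was 0.14 once the cells were thinned to 1500 UMIs. The higher gene, Apln, was at 32.9 CPM in Graft_D40 and 15.2 in Graft_D19, against 9.92 in Sham_D40 and 2.16 in Ctrl, with 95.8% of its Graft_D40 UMIs in 10 cells. Well inside the rule Apln was at 8.13 CPM in Graft_D40 and 10.2 in Sham_D40, a log2 ratio of -0.30, and 0 niche factors were higher and 3 lower. Kitl, stem cell factor, was low throughout at 13.0 CPM in Graft_D40 and 16.7 in Graft_D19, against 17.2 in Sham_D40 and 21.8 in Ctrl.

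Cfd, complement factor D or adipsin, was the gene with the greatest decrease among those named by the ranking. Cfd (chromosome 10, 79890853 to 79892655) was at 8.23 CPM in Graft_D40 and 104 in Graft_D19, against 159 in Sham_D40 and 278 in Ctrl. It was 19.4 times lower in Graft_D40 than in Sham_D40 (11.03 to 37.7), from 12 counts in the Graft_D40 cells. A thinned UMI was found in 1.34% of the classical cells in Graft_D40 and 8.27% in Graft_D19, against 11.4% in Sham_D40 and 17.4% in Ctrl. Outside the endothelial gate the shares were 0.315% in Graft_D40 and 0.321% in Graft_D19, against 0.411% in Sham_D40 and 1.01% in Ctrl. The Cfd order was the same well inside the rule, at 9.94 CPM in Graft_D40 and 112 in Graft_D19, against 166 in Sham_D40 and 286 in Ctrl.

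Lipid genes were partly lower, with 5 of 18 lower and 1 higher. Lpl, lipoprotein lipase, was at 117 CPM in Graft_D40 and 201 in Graft_D19, against 239 in Sham_D40 and 183 in Ctrl. Pparg, the nuclear receptor that drives fatty acid uptake genes, was at 206 CPM in Graft_D40 and 329 in Graft_D19, against 377 in Sham_D40 and 440.1 in Ctrl. Fabp4, a fatty acid carrier, was at 6616 CPM in Graft_D40 and 9034 in Graft_D19, against 10079.6 in Sham_D40 and 17174 in Ctrl. For Fabp4 the step between the ungrafted libraries was larger than the step between Graft_D40 and Sham_D40. Without mixed cells the Fabp4 log2 ratio was -0.49 and no longer past 1.5-fold.

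Other genes that the ranking placed lowest in Graft_D40 have roles outside these lists. Cyp4b1, a cytochrome P450 enzyme, was at 338 CPM in Graft_D40 and 630.2 in Graft_D19, against 759 in Sham_D40 and 701 in Ctrl. Rarres2, the precursor of the chemoattractant chemerin, was at 58.3 CPM in Graft_D40 and 127 in Graft_D19, against 145 in Sham_D40 and 180.4 in Ctrl. Ptger2, a prostaglandin E2 receptor, was at 32.2 CPM in Graft_D40 and 48.5 in Graft_D19, against 73.5 in Sham_D40 and 76.0 in Ctrl. In each, Graft_D19 lay between Graft_D40 and the ungrafted libraries. Tmem273, a membrane protein, was at 26.1 CPM in Graft_D40 and 82.2 in Sham_D40. Spry2, an inhibitor of receptor tyrosine kinase signalling, was at 21.9 CPM in Graft_D40 and 50.2 in Sham_D40.

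Flow-responsive and anticoagulant genes were mixed, with 2 of 16 higher and 3 lower. Thbd, thrombomodulin, was at 799 CPM in Graft_D40 and 905 in Graft_D19, against 1217 in Sham_D40 and 840.4 in Ctrl. Klf4, a flow-induced transcription factor, was at 370.2 CPM in Graft_D40 and 474 in Graft_D19, against 663 in Sham_D40 and 368 in Ctrl, so that its direction depended on the ungrafted library used. Nos3, endothelial nitric oxide synthase, was at 48.0 CPM in Graft_D40 and 38.6 in Graft_D19, against 26.1 in Sham_D40 and 20.4 in Ctrl, and Cav1, caveolin, at 45.9 CPM in Graft_D40 and 22.4 in Graft_D19, against 12.4 in Sham_D40 and 32.1 in Ctrl. The VEGF receptor gene Kdr was at 1276 CPM in Graft_D40 and 1652 in Graft_D19, against 1775 in Sham_D40 and 1227 in Ctrl. Of the 26 measured genes of the VEGF and sprouting list 3 were higher and 2 lower, and the 3 (Apln, Cd34 and Nid2) were measured only through their level in Graft_D40.

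Immediate early and stress genes are also induced by tissue digestion. Of 28 measured, 12 were lower and 0 higher in Graft_D40, 4 of them (Hspa1a, Hspa1b, Hsph1 and Gadd45b) measured only through Sham_D40, with a median log2 ratio of -0.50, and without mixed cells 12 of 27 were lower. Fos was at 555 CPM in Graft_D40 and 825 in Graft_D19, against 1066 in Sham_D40 and 1749.7 in Ctrl. Junb was at 402 CPM in Graft_D40 and 647 in Graft_D19, against 775 in Sham_D40 and 1152 in Ctrl, and Gadd45g at 152 CPM in Graft_D40 and 237 in Graft_D19, against 311 in Sham_D40 and 636 in Ctrl. These genes also differed between the ungrafted libraries. Egr1 was at 257 CPM in Graft_D40 and 327 in Graft_D19, against 516 in Sham_D40 and 387 in Ctrl. The heat shock gene Hspa1a was at 7.54 CPM in Graft_D40 and 50.1 in Graft_D19, against 42.7 in Sham_D40 and 30.0 in Ctrl. Hspa1b was at 17.1 CPM in Graft_D40 and 61.7 in Graft_D19, against 73.1 in Sham_D40 and 50.1 in Ctrl. Both are near-identical copies between which reads may be split. The NF-kB and Id genes given above, and Klf4, were like this list lower in Graft_D40 than in Sham_D40. Over Ctrl the log2 ratio of Klf4 was 0.0070. The part of tissue handling in the values of all these genes was not tested.

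Of 45 interferon-induced genes 36 were measured, of which 12 were higher and 0 lower, with a median log2 ratio of 0.23. Of the 12, 4 (Ifit1, Ifit2, Cxcl10 and Lgals3bp) were below 20 CPM in Sham_D40 and were measured only through their level in Graft_D40. Tgtp2, at 10.3 CPM in Graft_D40 and 24.7 in Sham_D40, missed the minimum on the pair mean. The other 8 were at 20 CPM or more in both libraries. Without mixed cells 16 were higher and the median was 0.35, and well inside the rule 15 were higher and it was 0.38. The promoters of 3 of the higher genes, 300 bases each from RefSeq on GRCm38.p6, are shown because all carry the core of the interferon-stimulated response element, the sequence bound by the interferon-activated transcription factors. Each runs 5′ to 3′ on the strand of its gene, with the matches in capitals. Rsad2 covers chr12:26456403-26456702 (minus strand), Cxcl10 chr5:92348840-92349139 (minus strand) and Gbp3 chr3:142559794-142560093 (plus strand).

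Rsad2: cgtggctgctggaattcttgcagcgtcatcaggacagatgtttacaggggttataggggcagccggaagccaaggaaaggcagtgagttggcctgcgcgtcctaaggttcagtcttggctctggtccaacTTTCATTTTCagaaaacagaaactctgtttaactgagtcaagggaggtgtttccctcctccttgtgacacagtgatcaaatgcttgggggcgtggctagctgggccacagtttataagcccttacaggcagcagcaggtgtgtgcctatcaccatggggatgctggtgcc
Cxcl10: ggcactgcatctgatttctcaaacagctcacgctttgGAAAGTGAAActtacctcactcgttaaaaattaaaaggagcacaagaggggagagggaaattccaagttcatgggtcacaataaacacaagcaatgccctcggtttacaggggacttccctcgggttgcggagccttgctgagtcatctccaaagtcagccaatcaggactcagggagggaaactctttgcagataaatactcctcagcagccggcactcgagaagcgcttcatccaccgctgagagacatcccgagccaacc
Gbp3: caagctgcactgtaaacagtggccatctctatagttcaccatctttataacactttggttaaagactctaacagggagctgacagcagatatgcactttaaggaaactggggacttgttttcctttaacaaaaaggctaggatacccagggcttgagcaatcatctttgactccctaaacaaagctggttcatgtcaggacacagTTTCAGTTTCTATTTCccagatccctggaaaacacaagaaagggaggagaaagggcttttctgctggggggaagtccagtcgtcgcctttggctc

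The pattern searched was GAAA, then 2 bases of any kind, then GAAA, on both strands, so a match on the other strand reads TTTC, 2 bases, TTTC. The match begins at position -120 from the start site in Rsad2 and at -213 in Cxcl10. In Gbp3 2 matches that overlap each other begin at -45 and -39, and a second annotated Gbp3 start holds 0. Of all 32851 promoters of this length 3.44% held the pattern, and of 27025 genes 3.99%. Among the measured interferon genes it was 17 of 30 with a promoter entry, or 56.7%, and among those higher in Graft_D40 6 of 12. A match is a description of the sequence and not a shown binding site.

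Rsad2 encodes viperin, an antiviral enzyme. It was at 218 CPM in Graft_D40 and 89.6 in Graft_D19, against 32.6 in Sham_D40 and 29.3 in Ctrl, 6.69 times as high in Graft_D40 as in Sham_D40 (5.51 to 8.13). A thinned Rsad2 UMI was found in 16.8% of the classical cells of Graft_D40 (11.2 to 23.8) and 7.87% in Graft_D19, against 5.07% in Sham_D40 and 3.32% in Ctrl, while 10 cells held 69.5% of the Graft_D40 UMIs. Outside the endothelial gate the shares were 3.72% in Graft_D40 and 2.36% in Graft_D19, against 1.79% in Sham_D40 and 1.84% in Ctrl. Rsad2 was thus higher both in summed level and in share of cells, with most of the RNA in few cells.

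Cxcl10, a chemokine for activated T cells, was at 122 CPM in Graft_D40 and 22.8 in Graft_D19, against 15.8 in Sham_D40 and 11.99 in Ctrl, but all of its Graft_D40 UMIs came from 10 cells. The thinned shares, 2.01% in Graft_D40 and 1.18% in Graft_D19, against 1.63% in Sham_D40 and 1.33% in Ctrl, did not order the libraries. Gbp3, a guanylate-binding protein of cell-autonomous defence, was at 50.7 CPM in Graft_D40 and 32.9 in Graft_D19, against 20.3 in Sham_D40 and 18.5 in Ctrl. Ifit3 was at 104 CPM in Graft_D40 and 69.4 in Graft_D19, against 55.7 in Sham_D40 and 42.2 in Ctrl. Oasl2 was at 82.3 CPM in Graft_D40 and 50.7 in Graft_D19, against 39.9 in Sham_D40 and 27.1 in Ctrl, and Ifi44 at 96.7 CPM in Graft_D40 and 69.6 in Graft_D19, against 57.7 in Sham_D40 and 42.2 in Ctrl. In these 4 genes the values ran in one order, highest in Graft_D40 and lowest in Ctrl. Isg15, a ubiquitin-like protein, was at 106 CPM in Graft_D40 and 101 in Graft_D19, against 55.7 in Sham_D40 and 75.8 in Ctrl, and Irf7, the factor that amplifies interferon production, at 53.5 CPM in Graft_D40 and 25.3 in Graft_D19, against 25.3 in Sham_D40 and 30.5 in Ctrl.

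Antigen presentation genes differed little. Of 22 measured, 2 were higher and 0 lower, with a median log2 ratio of 0.15, and without mixed cells 4 were higher. H2-T23, a non-classical MHC class I gene, was at 283 CPM in Graft_D40 and 182 in Graft_D19, against 148 in Sham_D40 and 139 in Ctrl, 1.91 times as high in Graft_D40 as in Sham_D40 (1.69 to 2.16). H2-M3 was at 41.1 CPM in Graft_D40 and 33.2 in Graft_D19, against 26.7 in Sham_D40 and 40.8 in Ctrl, so that it was past 1.5-fold against Sham_D40 but not against Ctrl. The MHC class I genes are a family of near-identical copies, and reads may be split between them.

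Of 45 basement membrane and vessel matrix genes 34 were measured, of which 15 were higher and 1 lower, with a median log2 ratio of 0.39. Of the 15, 3 (Lama4, Nid2 and Sparcl1) were measured only through their level in Graft_D40. Without mixed cells 10 of 33 were higher and 3 lower, and the median was 0.37. Well inside the rule 10 of 33 were higher and 3 lower, and the median was 0.24. The collagen IV genes form the network of the basement membrane. Col4a2 (chromosome 8, 11312805 to 11449287) was at 454 CPM in Graft_D40 and 390.0 in Graft_D19, against 236 in Sham_D40 and 169.6 in Ctrl, 1.92 times as high in Graft_D40 as in Sham_D40 (1.75 to 2.12). Its partner Col4a1 was at 725 CPM in Graft_D40 and 623 in Graft_D19, against 383 in Sham_D40 and 234 in Ctrl. For both collagen chains the grafted libraries stood above the ungrafted ones. Thinned Col4a2 was found in 48.3% of the classical cells in Graft_D40 and 29.3% in Sham_D40, against 30.1% and 33.1% of the cells outside the endothelial gate, which also express it.

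Among the other matrix genes, Lama4, the laminin chain of endothelial basement membranes, was at 50.7 CPM in Graft_D40 and 29.2 in Graft_D19, against 18.2 in Sham_D40 and 11.03 in Ctrl. Emilin1, an elastic fibre glycoprotein, was at 143 CPM in Graft_D40 and 66.5 in Graft_D19, against 41.9 in Sham_D40 and 35.02 in Ctrl. Timp2, an inhibitor of matrix metalloproteinases, was at 152 CPM in Graft_D40 and 88.9 in Graft_D19, against 56.9 in Sham_D40 and 54.7 in Ctrl. All were highest in Graft_D40, and their log2 ratios without mixed cells were 1.45, 1.72 and 1.40. Sparc, a collagen-binding secreted protein, was at 7369.8 CPM in Graft_D40 and 3973 in Graft_D19, against 3396 in Sham_D40 and 2963 in Ctrl. Nid1, nidogen, went the other way at 433 CPM in Graft_D40 and 582 in Graft_D19, against 646 in Sham_D40 and 356 in Ctrl. Fn1 and Mgp depended on the mixed cells: Fn1 stood at 491 CPM in Graft_D40 with them and 62.4 CPM without, and Mgp at 6998 CPM with them and 861 CPM without.

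Genes of the TGF-beta response leaned the same way, with 7 of 20 higher and 0 lower, and 5 higher without mixed cells. Ltbp4, which stores latent TGF-beta in the matrix, was at 159.7 CPM in Graft_D40 and 101 in Graft_D19, against 76.0 in Sham_D40 and 60.2 in Ctrl. Pmepa1, a feedback inhibitor of the pathway, was at 76.1 CPM in Graft_D40 and 73.6 in Graft_D19, against 41.1 in Sham_D40 and 32.9 in Ctrl. In both, the grafted libraries were above the ungrafted ones. S100a6, a calcium-binding protein, was at 80.2 CPM in Graft_D40 and 92.7 in Graft_D19, against 39.5 in Sham_D40 and 63.8 in Ctrl. Well inside the rule S100a6 was at 78.6 CPM in Graft_D40 and 37.5 in Graft_D19, against 40.3 in Sham_D40 and 53.5 in Ctrl. There only Graft_D40 was above the ungrafted libraries.

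Igfbp5, an IGF-binding protein bound to matrix, lies on chromosome 1, 72857932 to 72874884. It was at 684 CPM in Graft_D40 and 302 in Graft_D19, against 145 in Sham_D40 and 72.7 in Ctrl, 4.70 times as high in Graft_D40 as in Sham_D40 (4.27 to 5.18). The share of classical cells with a thinned UMI was 38.3% in Graft_D40 and 17.5% in Graft_D19, against 11.8% in Sham_D40 and 6.64% in Ctrl. Outside the endothelial gate the shares were higher and ran in the opposite order, at 52.2% in Graft_D40 and 66.1% in Graft_D19, against 72.4% in Sham_D40 and 76.6% in Ctrl. Since stroma holds so much of it, what free RNA adds to the endothelial level was not tested. In the Ramp3 group Igfbp5 stood at 3239 CPM in Graft_D40 and 493 in Graft_D19, against 179.6 in Sham_D40 and 67.3 in Ctrl. In the classical cells Stc1, the secreted hormone stanniocalcin, was at 193 CPM in Graft_D40 and 77.5 in Graft_D19, against 47.8 in Sham_D40 and 24.7 in Ctrl, with 70.8% of the Graft_D40 UMIs in 10 cells.

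**Figure D2:**
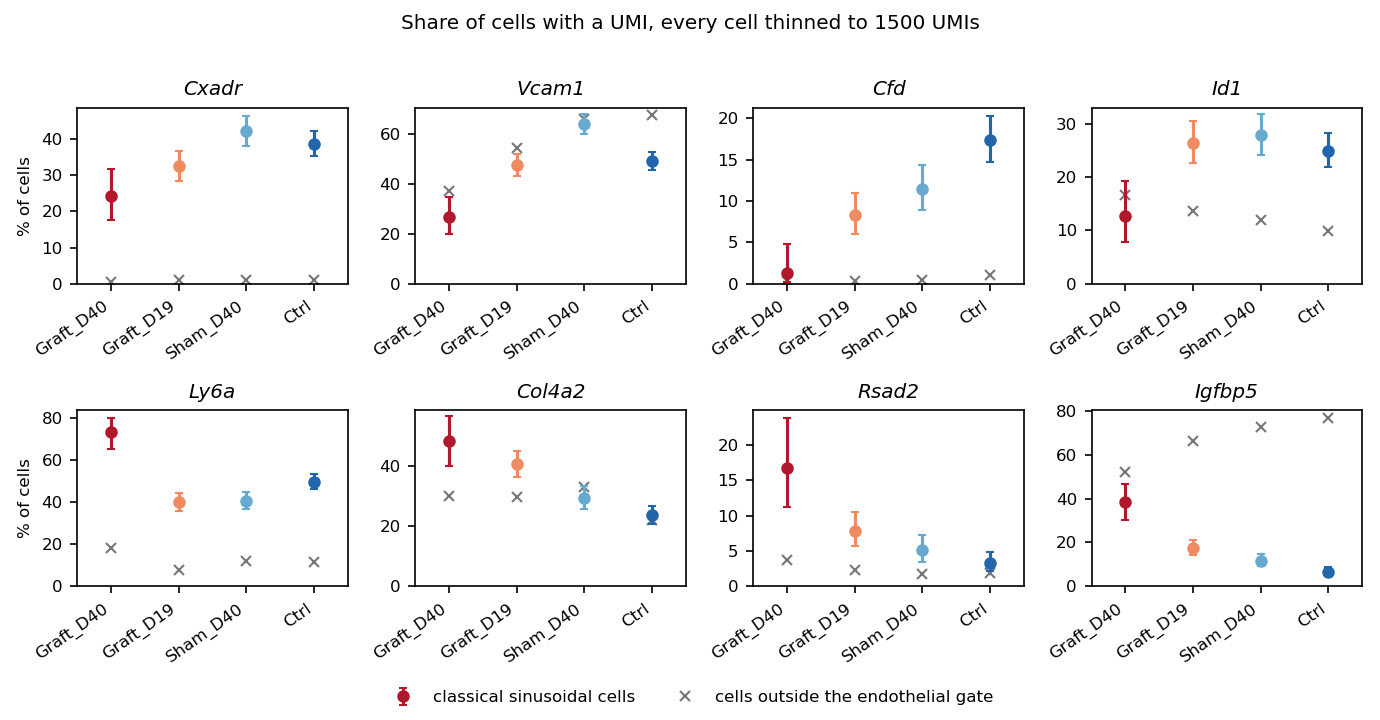
Percentage of cells with at least 1 UMI after thinning every cell to 1500 UMIs, for 8 genes in the 4 libraries. Points are the classical cells with Clopper-Pearson intervals and crosses are the cells outside the endothelial gate. Ly6a was found in 73.2% of the classical cells of Graft_D40 and 40.8% in Sham_D40, and Vcam1 in 26.8% and 64.1%.

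Ly6a, Ly6c1 and Cd34 were also higher in Graft_D40. Ly6a encodes Sca1, an antigen of the sort, and lies on chromosome 15, 74994877 to 74998031. It was at 1037 CPM in Graft_D40 and 472 in Graft_D19, against 388 in Sham_D40 and 594 in Ctrl, 2.67 times as high in Graft_D40 as in Sham_D40 (2.50 to 2.86). Ly6c1, of the same gene family, was at 412 CPM in Graft_D40 and 172 in Graft_D19, against 103 in Sham_D40 and 209.9 in Ctrl. Because endothelium was sorted on Sca1, the position of that gate in each sort bears on Ly6a, and it was not tested. Pecam1, the other sort antigen and a rule gene, was at 656 CPM in Graft_D40 and 595 in Graft_D19, against 516 in Sham_D40 and 343 in Ctrl.

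Cd34 (chromosome 1, 194938819 to 194961279) was 5.53 times as high in Graft_D40 as in Sham_D40 (3.70 to 8.37), on low counts. The same genes were higher still in the Ramp3 group, where Cd34 stood at 349 CPM in Graft_D40 and 184 in Graft_D19, against 64.7 in Sham_D40 and 52.6 in Ctrl. In the classical cells a list of arterial markers summed to 453 CPM in Graft_D40 and 215 in Graft_D19, against 133 in Sham_D40 and 240 in Ctrl. Ly6c1 is on this list and held most of the sum in each library, so the sum largely repeats the Ly6c1 values. Capillary markers summed to 1027 CPM in Graft_D40 and 949 in Graft_D19, against 864 in Sham_D40 and 1176 in Ctrl, and did not separate the grafted from the ungrafted libraries. Well inside the rule, Ly6a stood at 1007 CPM and Cd34 at 35.2 CPM in Graft_D40, with log2 ratios of 1.40 and 2.34 over Sham_D40.

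The strict ranking of Graft_D40 over both ungrafted libraries first returned cartilage genes. The first 12 were Panx3, Sema3d, Mgp, Col9a1, Epyc, Col11a1, Pth1r, Col2a1, Col9a3, Pcolce2, Hapln1 and Cnmd. In each, 92.8% to 100% of the Graft_D40 UMIs lay in 10 of 150 cells. Col2a1, cartilage collagen, stood at 2654 CPM in Graft_D40 and 168 CPM in Sham_D40 with all cells. Without the mixed cells it stood at 162 CPM in Graft_D40 and 62.2 CPM in Sham_D40. The log2 ratios of the 12 genes over Sham_D40 without the mixed cells ran from -0.49 for Epyc to 2.04 for Pcolce2, with Mgp at 1.86. In the cells well inside the rule Col2a1 was at -0.07 and Mgp at 1.58. Without the mixed cells the first 12 were Hist1h2ae, Cxcl10, Rsad2, Igfbp5, Stc1, Slfn2, Mgp, Emilin1, Pltp, Lama4, Tbxa2r and Rflnb. Hist1h2ae belongs to a family of near-identical histone copies and also had all its UMIs in 10 cells. Slfn2, a growth regulator of the Schlafen family, was at 47.3 CPM in Graft_D40 and 26.6 in Graft_D19, against 11.95 in Sham_D40 and 9.59 in Ctrl. Pltp, phospholipid transfer protein, was at 54.2 CPM in Graft_D40 and 23.3 in Graft_D19, against 16.4 in Sham_D40 and 17.3 in Ctrl, and Tbxa2r, the thromboxane receptor, at 47.3 CPM in Graft_D40 and 31.4 in Graft_D19, against 18.6 in Sham_D40 and 13.9 in Ctrl.

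The 12 ranked lowest in Graft_D40 were Cfd, Igfbp2, Tmem273, Hspa1b, Cxadr, Rarres2, Ptger2, Spry2, Cyp4b1, Pdgfb, Vcam1 and Gadd45g. Cxadr and Cyp4b1 were also higher in the classical cells than in the Ramp3 group in every library. In the Ramp3 group Cxadr stood at 39.4 CPM in Graft_D40 and 73.6 in Graft_D19, against 275 in Sham_D40 and 271 in Ctrl, and Cyp4b1 at 115 CPM in Graft_D40 and 274 in Graft_D19, against 639.5 in Sham_D40 and 542 in Ctrl.

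**Figure D3:**
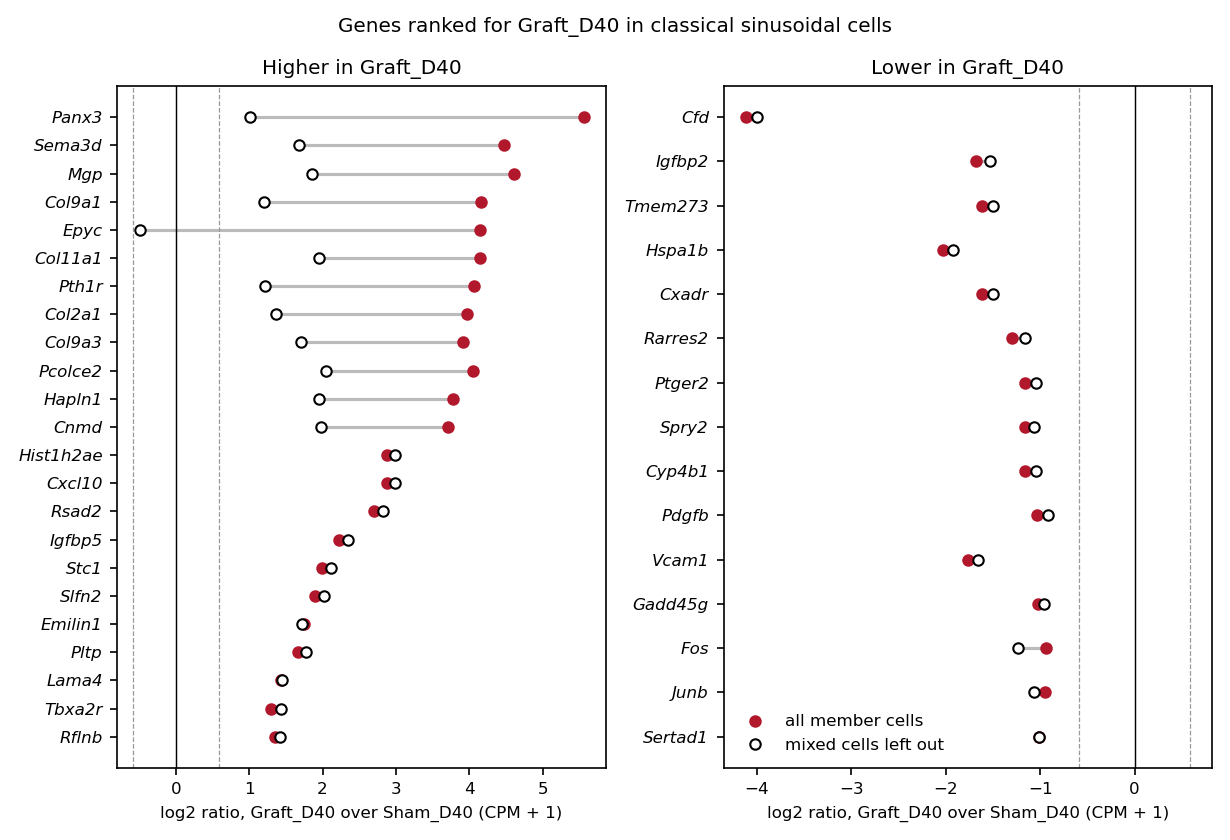
Log2 ratio of Graft_D40 over Sham_D40 for the genes ranked highest and lowest against both ungrafted libraries, with all classical cells and without the mixed cells. Cartilage genes such as Col2a1 lie near 4 with all cells (3.98) and at 1.36 without the mixed cells, while Cxadr lies at -1.62 and -1.49.

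Other lists held few or no differences. Of 10 measured cell cycle genes 0 were higher or lower. In the glycolysis and hypoxia list 1 of 20 was higher and 1 lower, with Vegfa at 89.8 CPM in Graft_D40 and 86.7 in Graft_D19, against 146 in Sham_D40 and 56.6 in Ctrl. Of 11 Notch genes 0 were higher and 2 lower (1 without mixed cells), among them the target gene Hes1 at 138 CPM in Graft_D40 and 245 in Graft_D19, against 239 in Sham_D40 and 510.2 in Ctrl. Of 8 venous and lymphatic genes 2 were lower and 0 higher, and both of these, Selp and Ackr1, are genes of the rule and were within 1.5-fold without mixed cells.

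**Figure D4:**
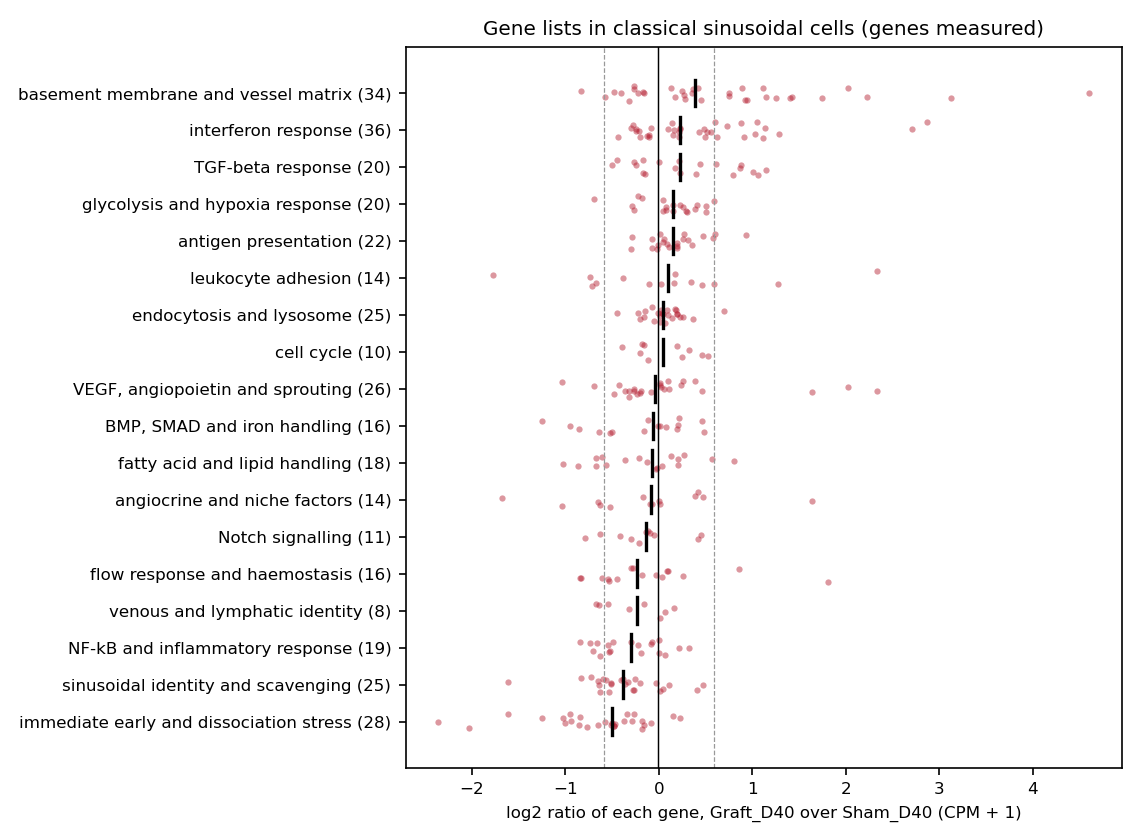
Log2 ratio of Graft_D40 over Sham_D40 for each measured gene of the 18 lists in the classical cells, 1 point per gene, with the list median as a bar and dashed lines at 1.5-fold. The medians run from -0.50 for immediate early genes to 0.39 for basement membrane genes.

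The Ramp3 group was compared in the same way as the nearest population. Between Graft_D40 and Sham_D40 519 genes were higher (7.71%) and 475 lower (7.06%) of 6730 in that group. Sinusoidal identity had 17 of 25 lower and a median of -0.86, against 7 of 25 and -0.38 in the classical cells. The immediate early list had 18 of 28 lower and a median of -1.12, and the interferon list 16 of 35 higher and a median of 0.53. The difference between the populations was not tested, since each had 1 library per group.

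Graft_D19 was set against Ctrl, the library that like it holds no antibody features, to see which differences were present early. Of 6502 genes 1040 were higher (16%) and 460 lower (7.07%), and the median of all genes was 0.17 on the log2 scale. With median-of-ratios size factors in place of library totals the split turned to 544 higher and 834 lower, so that 39.5% of the calls were higher against 69.3%. Against Sham_D40, Graft_D19 had 90 genes higher (1.35%) and 91 lower (1.36%) of 6676. Against both ungrafted libraries 42 were higher (0.662%) and 17 lower (0.268%) of 6341. The classical cells of Graft_D19 were thus much nearer to Sham_D40 than to Ctrl by these counts.

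At day 19, of 32 basement membrane genes 17 were higher than in Ctrl and 0 lower (median 0.67), and of 33 interferon genes 12 were higher and 1 lower (median 0.51). Ungrafted Sham_D40 was also above Ctrl in these lists, with 11 of 31 basement membrane genes higher and 1 lower (median 0.47), and 8 of 32 interferon genes higher and 1 lower (median 0.30). Over Sham_D40, Graft_D19 had 9 of 33 basement membrane genes higher and 0 lower (median 0.23), and 3 of 33 interferon genes higher and 1 lower (median 0.10). Col4a2 had a log2 ratio of 1.20 in Graft_D19 over Ctrl (a ratio between 2.11 and 2.51 by counting) and was 1.65 times as high as in Sham_D40. Rsad2 was 3.06 times as high as in Ctrl (2.50 to 3.78) and 2.75 times as high as in Sham_D40. Igfbp5 was 4.15 times as high as in Ctrl (3.67 to 4.72) and 2.08 times as high as in Sham_D40. Well inside the rule Igfbp5 was at 200 CPM in Graft_D19, against 149 in Sham_D40 and 69.0 in Ctrl, and was within 1.5-fold of Sham_D40. Col4a2, Rsad2 and Igfbp5 stood above both ungrafted libraries at both days, with Graft_D40 the higher of the grafted ones.

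Of the sinusoidal identity list at day 19, 1 of 26 was higher than in Ctrl and 5 were lower, with a median of 0.02 against 0.17 for all genes. Over Sham_D40 0 of 26 were higher or lower, with a median of -0.18. Cxadr had a log2 ratio of -0.16 over Ctrl, Gpm6a of 0.06 and Vcam1 of 0.16. Cfd was 2.68 times lower than in Ctrl (2.41 to 2.99) and 1.54 times lower than in Sham_D40. Of the genes named here, Cfd was thus lower at day 19, while Cxadr and Vcam1 did not pass 1.5-fold against Ctrl.

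The genes ranked highest at day 19 were Prg4, Fn1, Cilp, Col2a1, Dcn, Rsad2, Hapln1 and Col11a1, most of them from cartilage or joint tissue. Prg4, lubricin, stood at 1106 CPM in Graft_D19, with 98.5% of its UMIs in 10 cells, and at 20.2 CPM without the mixed cells. Without those cells the first were Rsad2, Hist1h1e, Igfbp5, Rflnb, Col2a1, Hivep2, Col4a2 and Stc1. The lowest without those cells were Depp1, Rnaset2a, Rnaset2b, Cebpd, Spp1 and Dclk1. Depp1, a FOXO-regulated gene, was at 211 CPM in Graft_D40 and 148 in Graft_D19, against 320.0 in Sham_D40 and 395 in Ctrl. Rnaset2a and Rnaset2b are near-identical ribonuclease copies, and their separate values are uncertain. Rnaset2a was at 36.3 CPM in Graft_D40 and 29.6 in Graft_D19, against 55.7 in Sham_D40 and 101 in Ctrl.

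Sham_D40 was set against Ctrl as the scale of difference between ungrafted libraries. With size factors its 1310 higher and 680 lower genes became 747 and 1034, so that 41.9% of the calls were higher against 65.8%, and the median of all genes was 0.20 by library totals. Ctsl, the lysosomal protease cathepsin L, was at 2262 CPM in Graft_D40 and 2601 in Graft_D19, against 3072 in Sham_D40 and 5497 in Ctrl. For Ctsl, as for Fabp4, the ungrafted libraries differed more than Graft_D40 and Sham_D40 did. Ribosomal protein genes took 10.4% of the UMIs in Graft_D40 and 11.3% in Graft_D19, against 9.59% in Sham_D40 and 14.0% in Ctrl.

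Within each library the classical cells were set against the Ramp3 group and the arterial gate, which share its preparation. The 14 genes of the rule, among them those that define these populations, are left out. Over the Ramp3 group 1 gene was higher in all 4 libraries (0.0174%) and 21 were lower (0.366%) of 5734. Cd34 was lower by 2.90 on the log2 scale in Graft_D40 and 3.05 in Graft_D19, against 2.82 in Sham_D40 and 2.94 in Ctrl. Ly6c1 stood at 412 CPM in the classical cells and 894 in the Ramp3 group of Graft_D40, and at 103 and 305 CPM in those of Sham_D40. Podxl, Timp2 and Col4a2 were also lower than in the Ramp3 group in every library. The genes that were higher in Graft_D40 than in Sham_D40 thus include several that separate the Ramp3 group from the classical cells in all 4 libraries.

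The reverse held for genes of the classical cells. Cxadr was above the Ramp3 group by a log2 ratio of 1.92 in Graft_D40 and 2.26 in Graft_D19, against 0.76 in Sham_D40 and 0.56 in Ctrl. Gpm6a was above it by 1.55 in Graft_D40 and 1.14 in Graft_D19, against 0.44 in Sham_D40 and 0.38 in Ctrl, and Adgrg6, an adhesion G protein-coupled receptor, by 2.05 in Graft_D40 and 1.43 in Graft_D19, against 0.86 in Sham_D40 and 0.34 in Ctrl. The gap between the populations was wider in both grafted libraries than in both ungrafted ones for these 3 genes, which were examined as markers or after their values were seen.

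Against the arterial gate 373 genes were higher in all 4 libraries (6.74%) and 374 lower (6.76%) of 5535. Ston2, an endocytic adaptor, stood at 229.7 CPM in the classical cells of Graft_D40, against 0.862 in the arterial gate. Dnase1l3 was higher by log2 ratios of 4.90, 7.95, 4.92 and 5.27 in Graft_D40, Graft_D19, Sham_D40 and Ctrl. Gja4, an arterial gap junction gene, stood at 0.686 CPM in the classical cells and 585 in the arterial gate of Graft_D40. Dkk2, a Wnt antagonist, was at 0 counts in the classical cells of all 4 libraries. The separation from the arterial gate, whose cells were chosen to lack Stab2, was thus large in every library, Graft_D40 included.

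**Figure D5:**
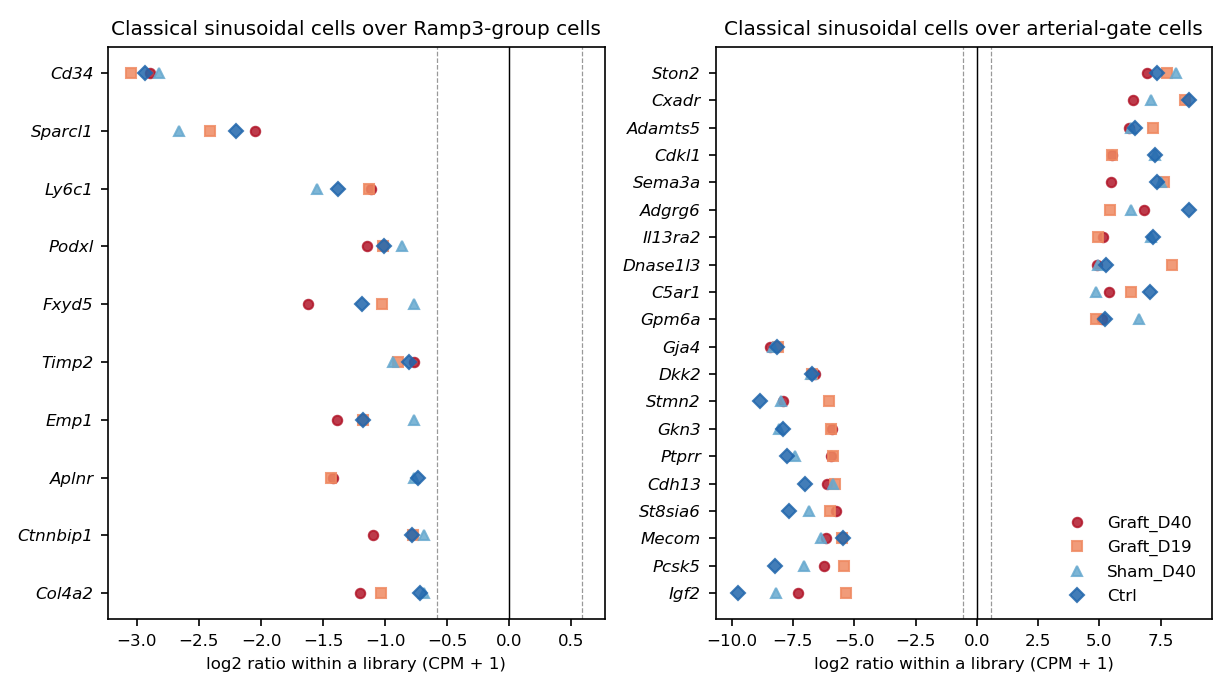
Log2 ratio of the classical cells over the Ramp3 group and over the arterial gate within each library, for the genes ranked by the smallest ratio over the 4 libraries. Cd34 lies between -3.05 and -2.82 over the Ramp3 group in all 4 libraries.

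Single cells varied widely around these sums. Stab2 had a median of 10.1 UMIs per 10000 in the classical cells of Graft_D40, with the middle 50% of cells between 6.56 and 13.7, against a median of 16.5 and 11.1 to 22.5 in Sham_D40. Vcam1 had a median of 1.25 in Graft_D40 and 7.15 in Sham_D40, and the upper quartile of Graft_D40, 2.73, lay below the lower quartile of Sham_D40, 3.19. Cxadr had a median of 0.667 in Graft_D40 and 3.66 in Sham_D40. Cells of 1 library share their source, so these spreads do not replace replicates.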

How the data were processed

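RNA of sorted femur marrow cells was measured by droplet 3-prime sequencing, with 1 library for each of 4 groups. The authors deposited raw UMI counts for each gene in each barcode, in matrices of 32285 genes. Per the file headers these counts came from Cell Ranger 5.0.0, while the submitters' processing notes name version 3.1.0 and the build mm10. Endothelium was sorted on Cd31 and Sca1 and stroma on Cd51 and Cd200, per the labels' protocols. Sham_D40 and Graft_D40 hold 2 antibody features each, which were left out of totals.

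Barcodes with 500 genes, 1000 UMIs and no more than 10% mitochondrial UMIs were kept as cells. UMIs of the chosen cells were summed per library and divided by their total (CPM). Log2 ratios used a pseudocount of 1 CPM. A gene was measured at a pair mean of 20 CPM or more and counted at 1.5-fold. Levels carry exact Poisson, ratios exact conditional binomial and shares Clopper-Pearson intervals at 95%, for counting error only. No p-value was computed with 1 library in a group, and the smallest that 4 libraries allow by exact sign changes of the within-library ratios is 0.125. Library gene UMIs were 72204599 in Graft_D40 and 63214301 in Graft_D19, against 51744386 in Sham_D40 and 18533482 in Ctrl. Scrublet (scanpy 1.11.5, expected doublet rate 6%) called 0 of the classical cells in Graft_D40 and 2 in Graft_D19, against 1 in Sham_D40 and 1 in Ctrl. They were kept, and left out as an alternative. Other alternatives changed the scaling, pseudocount, minimum, fold, depth, rule, mitochondrial limit and comparator.

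Named genes are the markers and rule genes, up to 4 members of each list, fixed genes, the first 10 in each direction against the Ramp3 group and the arterial gate, and ranked genes at 50 CPM or more. The ranking took genes that differed the same way from both ungrafted libraries, 12 in each direction for Graft_D40 and 8 for Graft_D19. Other list members named were chosen after their values were seen. The members, lists and rules were chosen with earlier results of these data known. Of the list genes 6 symbols were not found. Calculations were tested on simulated data, in Python 3.11.15 with pandas 2.3.3, numpy 2.4.6 and scipy 1.17.1.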

Additional observations from a re-analysis of the deposited data

Results flagged for a closer look

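Cilp, Ppa1 and Prg4 differed from Sham_D40 in opposite directions in the grafted libraries, a difference that was not tested and that shares Sham_D40 as the comparator. The log2 ratio of Cilp, a cartilage matrix gene, was -1.25 in Graft_D40 and 2.42 in Graft_D19. That of Prg4, lubricin, was -1.77 in Graft_D40 and 4.94 in Graft_D19. That of Ppa1, an inorganic pyrophosphatase, was 2.36 in Graft_D40 and -0.95 in Graft_D19. In each, few cells held the RNA on the higher side: 10 cells held 97.4% of the Ppa1 UMIs in Graft_D40, and 99.2% of the Cilp and 98.5% of the Prg4 UMIs in Graft_D19. Without the mixed cells Ppa1 stood at 21.0 CPM in Graft_D40.

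The antibody features, which enter no comparison, held signal in the classical cells. Feature B0302 summed to 393028 UMIs in the 150 classical cells of Graft_D40, and feature B0301 to 534285 UMIs in the 555 classical cells of Sham_D40. In every one of these cells the named feature held over 80% of the antibody UMIs. The same held for all 4920 cells that passed the filters in Graft_D40 and all 4570 in Sham_D40, so it is not particular to the classical cells. The labels do not say what the features mark.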

How the results depend on the processing

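No paired analysis was possible because each group is 1 library, and for the same reason no replicate could be left out. Of 116 counts of genes past the fold under the alternatives, 77 stayed within 1.5 times the main count. The counts below run, higher then lower, for Graft_D40 over Sham_D40 (272 and 252), Graft_D19 over Ctrl (1040 and 460), Sham_D40 over Ctrl (1310 and 680) and the classical cells over the Ramp3 group (1 and 21). At 2-fold they were 126 and 45, 150 and 88, 204 and 128, and 0 and 6. With no minimum they were 2202 and 1916, 3003 and 1386, 3479 and 1651, and 31 and 84. At a mean of 50 CPM they were 111 and 113, 503 and 306, 669 and 469, and 0 and 9. Size factors gave 544 and 834 for Graft_D19 over Ctrl and 747 and 1034 for Sham_D40 over Ctrl, and 2 higher over the Ramp3 group. Cells thinned to 1500 UMIs gave 962 and 785 for Graft_D40 over Sham_D40 and 7 higher over the Ramp3 group. The last count was 6 with cells weighted equally, 6 without the deepest 5% of cells, 3 without mitochondrial and ribosomal genes in the total and 3 at a mitochondrial limit of 5%. Graft_D40 over Ctrl gave 1394 and 736, and Graft_D19 over Sham_D40 gave 90 and 91.

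Of 2685 ratios of named genes under the alternatives, 22 changed sign in a gene past 1.5-fold in the main setting. Sign changes of ratios that were within 1.5-fold in the main setting were not counted among the 22. The 2685 include the changes of fold and minimum, which leave every ratio as it was. Thinned to 1500 UMIs, Eno1 was at -0.11 and Jag1 at 0.14 for Graft_D40 over Sham_D40 and Ppa1 at 0.24 for Graft_D19 over Ctrl. With the rule applied to thinned cells, Hist1h2ae was at -0.14 at day 40, and at day 19 Col11a1 was at -0.57, Hapln1 at -0.23 and Ppa1 at 0.20. Ppa1 at day 19 was at 0.46 without the deepest cells and 0.49 without mixed cells, and Epyc at day 40 was at -0.49 without mixed cells. Well inside the rule, at day 40, Apln was at -0.30, Col11a1 at -0.073, Col2a1 at -0.069, Col9a1 at -0.54, Col9a3 at -0.12, Epyc at -1.92 and Hapln1 at -0.083, and the chondrocyte marker median was -0.85. Over Ctrl in place of Sham_D40, Adamts1 was at 0.16, Eno1 at -0.80, Hsph1 at 1.01, Klf4 at 0.0070 and Vegfa at 0.66. The cause of these changes was not tested.

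Cxadr, Vcam1, Cfd, Fcgr2b, Rsad2, Cd34 and H2-T23 kept their direction and stayed past 1.5-fold for Graft_D40 over Sham_D40 under each of the 16 alternatives, Ctrl as comparator included. Of these alternatives, the 2-fold limit, no minimum and the mean of 50 CPM cannot change a ratio and say nothing on its stability. Leaving out Scrublet calls removed 0 classical cells of Graft_D40 and 1 of Sham_D40. The 150 cells of Graft_D40 limit what can be seen, since 3 counts there equal 2.06 CPM.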

Other observations

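Genes of the Ramp3 group outside the rule were examined after their values were seen. In the classical cells, Sparcl1, a matricellular protein, was at 29.5 CPM in Graft_D40 and 29.0 in Graft_D19, against 15.4 in Sham_D40 and 22.1 in Ctrl. In the Ramp3 group it was at 125 CPM in Graft_D40 and 158 in Graft_D19, against 102 in Sham_D40 and 105 in Ctrl. Aplnr, the apelin receptor, was at 170.7 CPM in Graft_D40 and 200.7 in Graft_D19, against 212 in Sham_D40 and 169 in Ctrl, in the classical cells. In the Ramp3 group Aplnr was at 457 CPM in Graft_D40 and 546 in Graft_D19, against 362 in Sham_D40 and 282 in Ctrl. Aplnr thus had no order by graft in the classical cells, while both grafted libraries were above both ungrafted ones in the Ramp3 group.

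Markers of B cells were at or near 0 in the classical cells, with summed levels of 0 CPM in Graft_D40 and 2.86 in Graft_D19, against 0.608 in Sham_D40 and 0.240 in Ctrl. Megakaryocyte markers summed to 28.1 CPM in Graft_D40 and 38.0 in Graft_D19, against 31.4 in Sham_D40 and 56.1 in Ctrl, and erythroid markers to 75.4 CPM in Graft_D40 and 71.1 in Graft_D19, against 103 in Sham_D40 and 80.8 in Ctrl.

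Venous receptor genes kept high levels in all 4 libraries. Flt4, a VEGF-C receptor of sinusoids and lymphatics, was at 719.8 CPM in Graft_D40 and 822 in Graft_D19, against 925 in Sham_D40 and 609 in Ctrl. Emcn, a sialomucin of venous and capillary endothelium, was at 710.2 CPM in Graft_D40 and 784 in Graft_D19, against 634 in Sham_D40 and 632 in Ctrl. In the classical cells Vwf, the von Willebrand factor gene, was at 5.48 CPM in Graft_D40 and 4.83 in Graft_D19, against 2.03 in Sham_D40 and 2.64 in Ctrl. In the arterial gate it was at 209.5 CPM in Graft_D40 and 31.1 in Graft_D19, against 183 in Sham_D40 and 486 in Ctrl.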
